A study of Mus musculus with 2 samples.

Results

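Immune checkpoint and costimulation genes encode the paired ligands and receptors with which tumour, myeloid and antigen-presenting cells restrain or license T cells. The genes described here are 9, chosen by symbol: the ligand genes Cd274, Pdcd1lg2, Cd80 and Cd86 and the receptor genes Pdcd1, Ctla4, Havcr2, Lag3 and Tigit. All 9 were among the 28523 genes listed for the whole data set. The tissue was liver metastases that 4T1, a triple-negative mammary carcinoma line of the mouse, formed in female BALB/c mice of 6 to 8 weeks. The shSCR library came from mice given cells with a scrambled non-targeting hairpin, and the shZdhhc17 library from mice given cells with a hairpin against Zdhhc17, which encodes a palmitoyltransferase. Both lines had been transduced with lentivirus and selected with puromycin, and only the injected cells carried a hairpin. In both groups 250000 cells were injected into the spleen, the spleen was then removed, and metastases were collected on day 14 and pooled from 3 mice before capture.

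Each group is thus 1 library of pooled mice, with no test between groups. The shSCR library held 22860 cells and the shZdhhc17 library 21511, with medians of 7105 and 6732 UMIs (molecule counts) per cell. The libraries shared 609 cell barcodes, which is 2.66% of the shSCR cells and 2.83% of the shZdhhc17 cells. The tables used here hold annotations per cell, flags per gene and a list of neutrophil cluster markers. Levels of the 9 genes per cell type or per library, and that of Zdhhc17, were therefore not analysed here, and neither were the defining markers of the annotated cell types.

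PD-L1 (Cd274) and PD-L2 (Pdcd1lg2) are the ligands of PD-1 (Pdcd1), a receptor on activated T cells that dampens antigen receptor signalling. CD80 and CD86, on antigen-presenting cells, costimulate T cells through CD28 and are bound more tightly by the inhibitory receptor CTLA-4, which regulatory T cells carry at a high level. TIM-3 (Havcr2), LAG-3 and TIGIT are further inhibitory receptors of activated and exhausted T cells, and TIM-3 is also found on myeloid cells and LAG-3 and TIGIT on NK cells. Myeloid cells, neutrophils among them, can carry PD-L1, and both interferon signalling and hypoxia are known to raise it.

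Among the ligands, Cd274 and Pdcd1lg2 are neighbours on GRCm38 chromosome 19 (GENCODE M21). Cd274 (ENSMUSG00000016496.7) spans 29367455 to 29388095 and Pdcd1lg2 (ENSMUSG00000016498.10) spans 29410919 to 29471161. Both are protein-coding genes on the plus strand, 22.8 kb apart, with no annotated gene between them. Each overlaps an annotated antisense gene, and whether counting used the strand is not given in the sources used here. Cd86 (ENSMUSG00000022901.13, 36603869 to 36666081, minus strand) and Cd80 (ENSMUSG00000075122.5, 38455561 to 38496335, plus strand) lie 1.79 Mb apart on chromosome 16 with 25 protein-coding genes between them.

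The receptor genes are more scattered. Tigit (ENSMUSG00000071552.5, 43648867 to 43664146, minus strand) lies on the chromosome of Cd80 and Cd86, 5.15 Mb from Cd80. Ctla4 (ENSMUSG00000026011.13, 60887000 to 60915832, plus strand) and Pdcd1 (ENSMUSG00000026285.7, 94038305 to 94052553, minus strand) are both on chromosome 1 but 33.1 Mb apart. Ctla4 overlaps Rpl18-ps1, a processed pseudogene annotated on the same strand, and how reads there were counted is not given in the sources used here. Havcr2 (ENSMUSG00000020399.14) is on chromosome 11 at 46454935 to 46481255, plus strand. Lag3 (ENSMUSG00000030124.2) is on chromosome 6 at 124904361 to 124911705, minus strand, and is the shortest of the 9 at 7.34 kb.

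The first question was which of the 9 genes varied most between cells. The authors flagged the 1000 most variable genes, which they used to place cells in reduced dimensions, once for all cells and once for neutrophils. Over all cells, 3 of the 9 were flagged, namely the ligand gene Cd274 and the receptor genes Pdcd1 and Ctla4, against 3.51% of all 28523 genes. Pdcd1lg2, Cd80, Cd86, Havcr2, Lag3 and Tigit were not flagged. The flag ranks genes by their variation over cells of all types in both libraries together, so it names neither the cells that carry a gene nor a difference between the libraries.

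Within neutrophils the flagged genes were both ligands. Cd274 and Cd80 were among the 1000 variable genes of neutrophils, which are 4.64% of the 21544 genes listed for these cells. Pdcd1lg2, Cd86, Ctla4 and Havcr2 were listed there without the flag. Cd274 was thus the only one of the 9 flagged in both sets, while Pdcd1 and Ctla4 were flagged over all cells alone and Cd80 in neutrophils alone. The flagged sets share 383 genes, which is 38.3% of each.

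The receptor genes Pdcd1, Lag3 and Tigit were not in the neutrophil gene table. All 4 ligand genes were, as were the receptor genes Ctla4 and Havcr2. Of all genes of the data set, 24.5% (6979) were likewise not in that table, so 3 of 9 is near the background. The rule by which genes entered the table is not given in the sources used here, and a place in it says neither how many neutrophils had the transcript nor how much.

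Other genes of the same pathways were taken from a list of 40, of which 39 were in the table of all cells (Hhla2 was not matched). Over all cells 9 of the 39 were flagged as variable. They were the costimulatory receptor genes Cd28, Icos, Tnfrsf9 (4-1BB) and Tnfrsf18 (GITR), Cd226, whose product competes with TIGIT for its ligands, the inhibitory receptor gene Btla, Cd200, the ligand of an inhibitory myeloid receptor, and Fgl1 and Clec4g, which encode liver-expressed ligands of LAG-3. The share of these related genes, 23.1%, was again above the 3.51% of all genes, and no test was made of it. In neutrophils 1 of 31 was flagged, 3.23% against 4.64% of all genes, and that gene was Cd244a, which encodes the receptor 2B4. The list itself was drawn up for known immune genes, and which cells carry them was not analysed here.

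**Figure D1:**
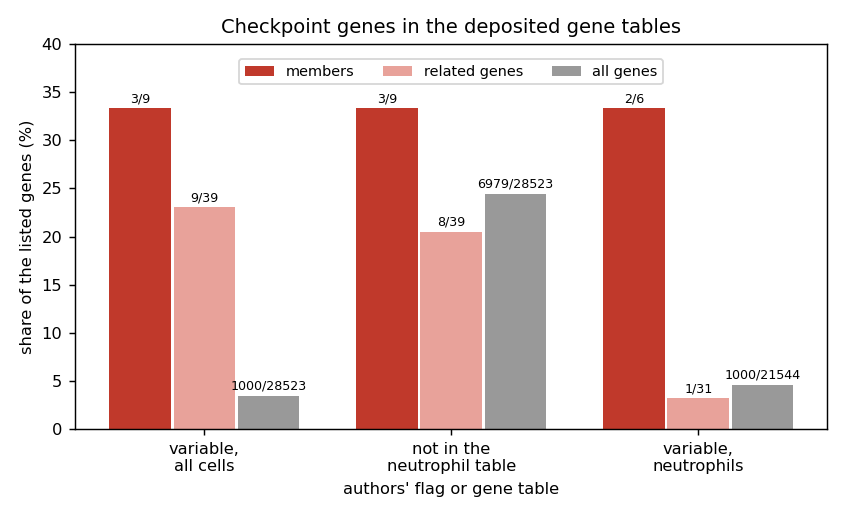
Share of genes (%) flagged as variable over all cells, not present in the neutrophil gene table, or flagged as variable in neutrophils, for the 9 checkpoint and costimulation genes (red), the related list (pink) and all genes (grey), with counts above the bars. Of the 9 genes, 3 were variable over all cells and 2 of the 6 listed were variable in neutrophils, while the 3 of 9 not in the neutrophil table are near the 24.5% of all genes.

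The second question was in which neutrophils the 9 genes stood out. Of the 6 listed for neutrophils, 1 was among the 180 markers of the 9 neutrophil clusters (20 a cluster), where 0.835% of all genes listed for neutrophils have a place. It was Cd274, in the cluster that the authors named Hypoxia/Angiogenesis. In the authors' deposited table, Cd274 was detected in 41.9% of the cells of this cluster and in 8.62% of all other neutrophils. The log2 fold change of its mean depth-scaled level against all other neutrophils was 2.62 in the authors' deposited table. Both libraries are together in these values. Cd274 was itself among the genes used for the clustering, so they describe the cluster and test nothing.

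The deposited fractions correspond to 864 of the 2064 cells of the cluster (exact 95% binomial interval 39.7% to 44.0%) and 764 of the 8858 other neutrophils (8.05% to 9.23%). In all, Cd274 was detected in 1628 of 10922 neutrophils, or 14.9%. The cluster made up 18.9% of neutrophils and held 53.1% of the Cd274-positive ones (50.6% to 55.5%). Positive cells were thus split almost evenly between this cluster and the other 8. The intervals cover counting error only, and how the positive cells divide between the libraries or among the other clusters was not analysed here. The part of free RNA left after the authors' correction in the 8.62% was not tested.

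**Figure D2:**
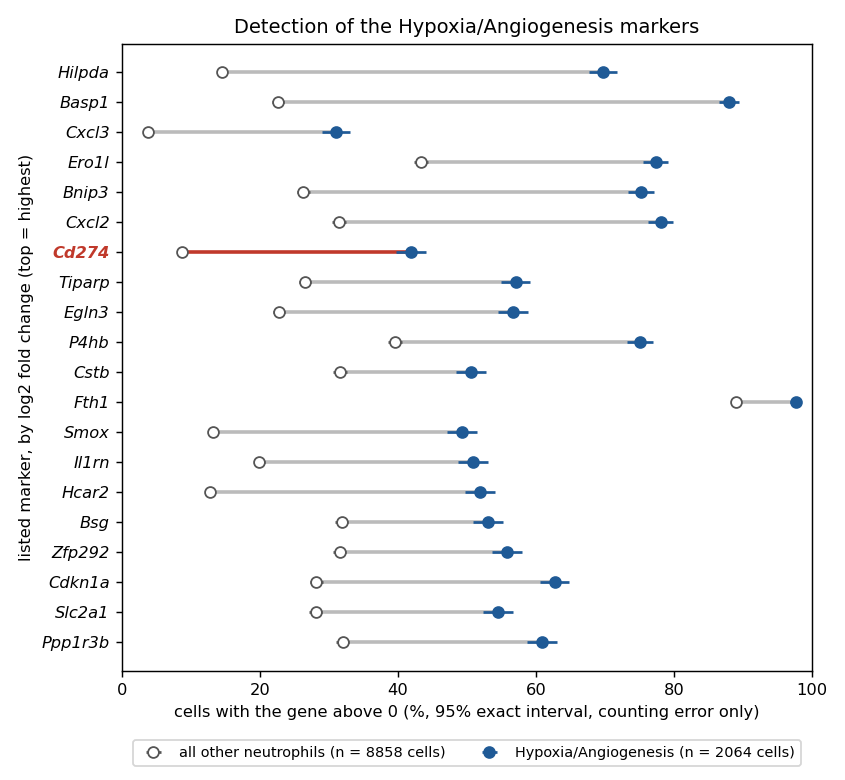
Percent of cells with the gene above 0 in the Hypoxia/Angiogenesis cluster (blue, 2064 cells) and in all other neutrophils (open, 8858 cells) for the 20 listed markers, ordered by the authors' log2 fold change, with exact 95% intervals for counting error. Cd274 (red) runs from 8.62% to 41.9%, at the low end of both scales beside Cxcl3.

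Set beside the other 19 markers of the cluster, Cd274 was detected in few cells, and its place depended on the measure. The other markers were detected in 31.0% to 97.6% of the cells of the cluster (median 57.0%), and Cd274 came in place 19 of 20, above the chemokine gene Cxcl3. Outside the cluster they were detected in 3.67% to 88.9% of neutrophils (median 28.0%), and Cd274 was again second lowest after Cxcl3. The ratio of the fraction inside to that outside was 4.86 for Cd274, against a median of 2.23 for the others (1.10 to 8.45), with Cxcl3 alone above it. By the difference of these fractions Cd274 came in place 11 of 20, and by the authors' specificity score in place 19.

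The share of positive neutrophils that belong to the cluster gives the same order by construction, since it follows from that ratio and the cluster's size. It was 66.3% for Cxcl3 (63.2% to 69.3%), 53.1% for Cd274 and 52.9% for the lipid droplet gene Hilpda (51.0% to 54.8%), whose interval overlaps that of Cd274. The median of the other 19 was 34.2%, and the lowest was 20.4% for Fth1, the ferritin heavy chain gene found in nearly all neutrophils. Among all 180 markers of the 9 clusters, Cd274 came in place 2 by this share. A larger cluster holds more of the positive cells of any gene, and this is the second largest of the 9, so the place depends on cluster size. By the ratio of fractions, which does not, Cd274 came in place 28 of 180.

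**Figure D3:**
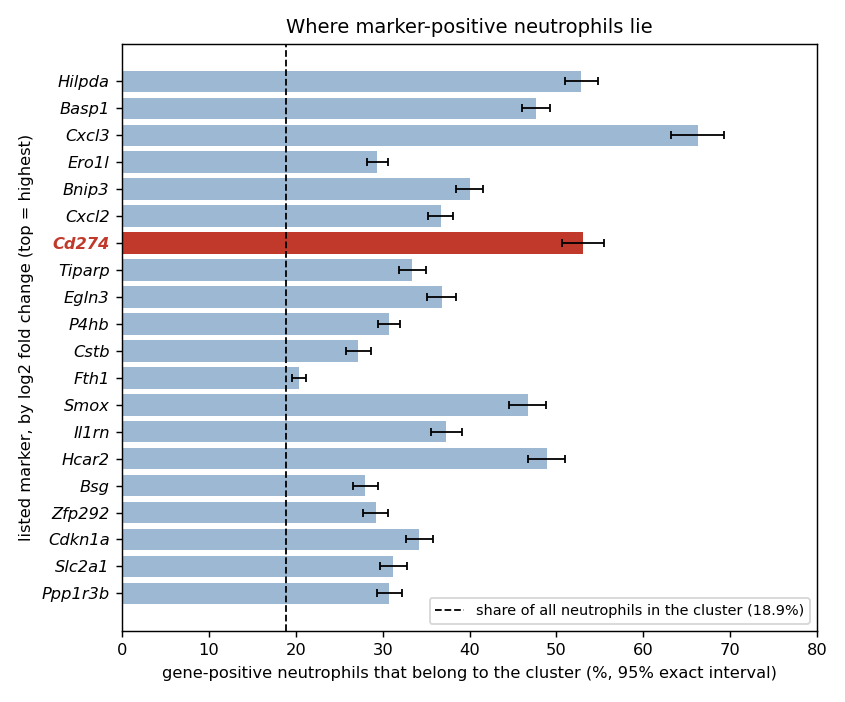
Percent of the neutrophils positive for each marker that belong to the Hypoxia/Angiogenesis cluster, with exact 95% intervals for counting error. The dashed line marks the 18.9% of neutrophils in the cluster, and the bar of Cd274 (red) reaches 53.1%, below Cxcl3 and level with Hilpda.

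By log2 fold change Cd274 came in place 7 of the 20 in the authors' deposited table. The next above were Cxcl2 (2.72), a neutrophil-attracting chemokine gene, Bnip3 (2.95), a mitophagy receptor gene that hypoxia-inducible factors induce, and Ero1l (3.08), an oxidase of protein folding in the endoplasmic reticulum. The next below in the authors' deposited table were Tiparp (2.58), an ADP-ribosyltransferase gene, Egln3 (2.39), a prolyl hydroxylase of the oxygen-sensing pathway, and P4hb (2.33), a protein disulphide isomerase. These neighbours were named only for their place by fold change. Their detection was wider than that of Cd274, from 56.6% of the cluster for Egln3 to 78.1% for Cxcl2.

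The cells of this cluster were shallower than other neutrophils. They had a median of 1295 UMIs in shSCR and 954 in shZdhhc17, against 3868 and 1776 in all other neutrophils, and a median of 647 detected genes against 1067 over both libraries. By median UMIs it ranked eighth of the 9 clusters, above Inflammation (1175 in shSCR and 906 in shZdhhc17) and below Early-Stage 1 (21152 and 15679). The fold change rests on values scaled to equal depth per cell, in which 1 molecule weighs more in a shallow cell. The detected fractions are not scaled in this way.

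**Figure D4:**
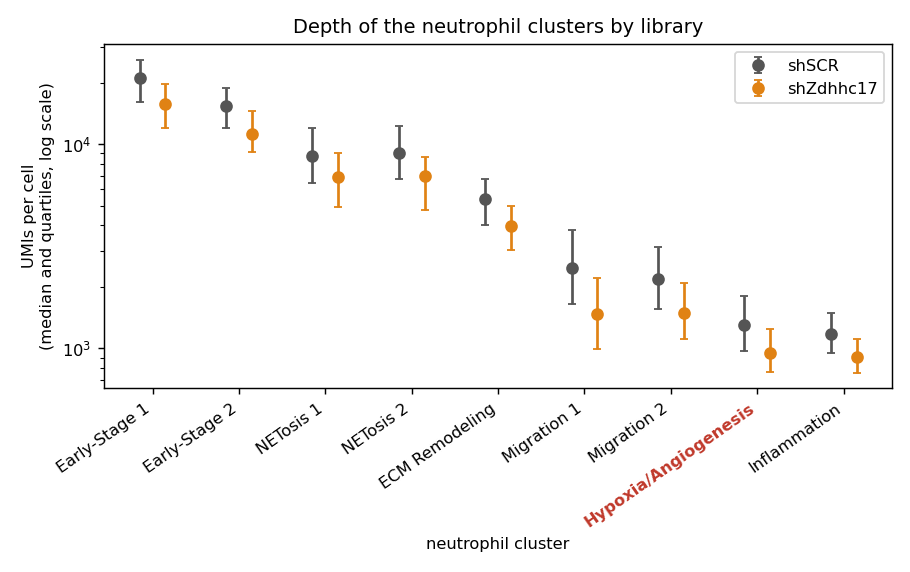
UMIs per cell (log axis) in the 9 neutrophil clusters of the shSCR (grey) and shZdhhc17 (orange) libraries, with points at medians and bars from the lower to the upper quartile. The Hypoxia/Angiogenesis cluster, where Cd274 is a listed marker, has medians of 1295 and 954, and of the 9 only Inflammation lies lower.

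The cluster marked by Cd274 held 1387 cells in the shSCR library and 677 in the shZdhhc17 library. As a share of neutrophils it was 21.0% and 15.6%, a ratio of 0.744 (95% counting interval 0.684 to 0.808). As a share of all cells of the library it was 6.07% and 3.15%, a ratio of 0.519 (0.474 to 0.568). These are shares of the cluster, not of Cd274-positive cells, and the fraction of its cells with Cd274 in each library was not analysed here. Neutrophils as a whole made up 28.8% of shSCR cells and 20.1% of shZdhhc17 cells, and cancer cells 27.2% and 36.9%. Among neutrophils, some other clusters were smaller in shZdhhc17 (NETosis 1, 11.6% and 4.99%) and some larger (Inflammation, 18.1% and 28.6%). UMIs per cell of the Hypoxia/Angiogenesis cluster were lower in shZdhhc17 too, with a ratio of medians of 0.737. That ratio was below 1 in every neutrophil cluster, from 0.593 in Migration 1 to 0.785 in NETosis 1. The part of depth in the cluster's share was not tested.

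Of the related list, Ceacam1 alone was a listed neutrophil marker. It encodes an adhesion receptor that has been described as a partner of TIM-3 and is also found on granulocytes. In the authors' deposited table it marked the cluster named NETosis 1 with a log2 fold change of 1.33. It was detected in 89.5% of the cells of NETosis 1 and in 30.5% of all other neutrophils in the authors' deposited table. Unlike Cd274, it was not flagged as variable in either set.

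T cells, NK cells, conventional dendritic cells and non-Kupffer macrophages, which are among the cell types known to carry some of the 9 genes, differed widely in number and depth. They are not all the types that can carry them. T cells, the main known source of Pdcd1, Ctla4, Lag3 and Tigit, numbered 422 in shSCR and 375 in shZdhhc17, with medians of 2051.5 and 1130 UMIs. NK cells numbered 45 and 37. Conventional dendritic cells, known for Cd80, Cd86 and Pdcd1lg2, numbered 301 and 239 with medians of 5700 and 4761 UMIs. Non-Kupffer macrophages, which can carry the ligands and Havcr2, numbered 3127 and 2934 with medians of 8362 and 6959.5 UMIs. The T cell share of all cells was 1.85% in shSCR and 1.74% in shZdhhc17 (ratio 0.944, 0.823 to 1.08). It came to 1.26% and 0.529% among cells with at least 1925 UMIs (ratio 0.419, 0.326 to 0.538), a limit that lies between the medians of T cells in the libraries.

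The promoter windows of Cd274, its chromosomal neighbour Pdcd1lg2, and the markers next above and below Cd274 by fold change with an entry, Cxcl2 and Tiparp, are shown because Cd274 was listed with hypoxia genes. Each runs 5′ to 3′ from 250 bases before to 50 bases after the RefSeq transcript start (GRCm38.p6). Capitals mark ACGTG and GCGTG, the core letters that hypoxia-inducible factors are known to recognise, on either strand, so that a match on the opposite strand reads CACGT or CACGC.
Cd274 (chr19:29367188-29367487, plus strand): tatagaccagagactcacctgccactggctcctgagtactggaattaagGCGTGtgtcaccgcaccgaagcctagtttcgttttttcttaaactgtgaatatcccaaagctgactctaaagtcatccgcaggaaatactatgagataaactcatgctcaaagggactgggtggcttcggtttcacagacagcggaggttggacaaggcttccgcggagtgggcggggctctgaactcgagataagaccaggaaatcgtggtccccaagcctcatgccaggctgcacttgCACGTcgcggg
Pdcd1lg2 (chr19:29410669-29410968, plus strand): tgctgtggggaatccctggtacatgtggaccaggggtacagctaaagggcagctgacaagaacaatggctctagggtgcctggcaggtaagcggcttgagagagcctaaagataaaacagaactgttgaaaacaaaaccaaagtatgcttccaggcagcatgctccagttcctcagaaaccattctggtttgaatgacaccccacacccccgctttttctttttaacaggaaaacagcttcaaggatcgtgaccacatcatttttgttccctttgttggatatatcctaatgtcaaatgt
Cxcl2 (chr5:90903649-90903948, plus strand): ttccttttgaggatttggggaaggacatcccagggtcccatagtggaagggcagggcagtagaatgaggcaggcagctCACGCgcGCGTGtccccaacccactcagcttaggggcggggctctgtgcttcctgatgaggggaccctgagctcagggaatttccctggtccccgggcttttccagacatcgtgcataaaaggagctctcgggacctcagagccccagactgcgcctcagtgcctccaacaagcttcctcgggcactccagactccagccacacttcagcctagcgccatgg
Tiparp (chr3:65528197-65528496, plus strand): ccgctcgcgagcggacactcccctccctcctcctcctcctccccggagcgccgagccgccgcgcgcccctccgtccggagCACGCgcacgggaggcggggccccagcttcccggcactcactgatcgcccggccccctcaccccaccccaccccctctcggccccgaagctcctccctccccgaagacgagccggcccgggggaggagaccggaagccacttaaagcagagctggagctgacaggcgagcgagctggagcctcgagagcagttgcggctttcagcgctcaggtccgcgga

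The Cd274 window held GCGTG with its first base at position -201 from the transcript start and ACGTG on the opposite strand at position 40 after it, while that of Pdcd1lg2 held neither. Of the 7 members with a window (Cd86 and Lag3 were not matched), Ctla4 had ACGTG at -199 and 15 and Tigit at -45, all on the opposite strand. Havcr2 had ACGTG at -100 on its own strand, and Cd80 and Pdcd1 had no match. In all, 4 of 7 windows of members held a match, against 43.8% of all 32851 windows. The windows of Ctla4 (60908775 to 60909074) and Cd80 (38458683 to 38458982) lie inside the gene spans given above, not at their starts. Among the markers of the Hypoxia/Angiogenesis cluster, that of Cd274 included, 15 of 21 windows (71.4%) held a match, against the same 43.8%. These markers were listed from the same data for a cluster named for hypoxia, so the counts describe the list and test nothing. The markers Cstb, Hcar2, Bsg and Ppp1r3b were not matched to a window. Counted per gene, 14 of 16 had a match in at least 1 window, against 46.7% of all genes. Their windows were richer in G and C, with a median of 64.3% against 52.7% for all windows, the value that the Cd274 window itself had. The part of base composition in the count was not tested, and a match describes letters, not binding.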

How the data were processed

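The 2 libraries were captured on BD Rhapsody, a microwell system. The authors used the Rhapsody pipeline, corrected counts for ambient RNA and annotated cell types and neutrophil clusters, per the file headers. Symbols follow GRCm38 (mm10), and the submitters' processing notes name Seurat 4.1.0. The deposited cell tables give whole-number counts of UMIs and detected genes per cell (500 UMIs at least) and the percent of mitochondrial UMIs. The deposited marker table gives, per the file headers, log2 fold changes (Wilcoxon method, pseudocount of 1), the fraction of cells above 0 and a specificity and marker score. The deposited gene tables give flags only.

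The 9 genes and the related list were chosen with earlier results of these data known. Named genes were the 9, each related gene flagged or listed as a marker, and the 3 markers next above and below Cd274 by log2 fold change. Other markers named as comparators, Cxcl3, Hilpda and Fth1, were chosen after their values were seen. Positive cells were computed as fraction times number of cells. For all 180 markers a whole number of cells gave the deposited fraction within 0.00005. Shares have exact (Clopper-Pearson) 95% binomial intervals and ratios log-normal counting intervals (SciPy 1.17.1), tested on simulated data. No test between groups was made, since each is 1 library. Doublets were kept as annotated by the authors, in denominators of all cells and of cells other than cancer cells. Motifs were counted in RefSeq windows of 300 bases. Alternatives changed the denominator, the UMI or mitochondrial limits, the ranking measure or the motif count. A planned comparison of proteins and of levels per cell type was not made here.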

Additional observations from a re-analysis of the deposited data

How the results depend on the processing

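The shZdhhc17 to shSCR ratio of the Hypoxia/Angiogenesis share, 0.744 of neutrophils, stayed below 1 in all 4 alternatives. It was 0.519 of all cells, 0.552 from the lower quartile of UMIs (1093) upward, 0.616 at or under the median mitochondrial percent of 1.33% and 0.713 without the top 5% of UMIs. The limit of 1093 lies between the cluster's medians (1295 in shSCR and 954 in shZdhhc17). It kept 903 of 1387 shSCR cells of the cluster and 250 of 677 shZdhhc17 cells. The mitochondrial limit kept 1037 and 598 of these cells, in the same order. Of all neutrophils it kept 2820 of 6594 in shSCR and 2641 of 4328 in shZdhhc17. Leaving out the top 5% removed no cell of the cluster, so that setting changed only the denominators. The T cell ratio was 0.944, with an interval for counting error only, not for variation between mice or libraries. It was 1.09 among cells other than cancer cells and 0.419 from the lower quartile of UMIs (1925) upward. The cause was not tested. Cd274 ranked 7 of 20 by log2 fold change, 12 by the authors' marker score, 19 by their specificity score, 19 by detected fraction and 11 by the difference of fractions. The share of Cd274-positive neutrophils in the cluster was 53.1%, beside the cluster's 18.9% of all neutrophils. With cluster and rest weighted equally the value was 82.9%, which restates the ratio of fractions and is not a share of cells. By that measure Fth1, found in nearly all neutrophils, came to 52.3%. The equal weighting was an alternative added after seeing the data. The per-gene motif count was added likewise. With ACGTG alone, the share of windows of cluster markers with a match went from 71.4% to 42.9%, that of all windows from 43.8% to 19.6%, and that of members was the same, 57.1%. The number of the 9 genes flagged as variable was 3 over all cells and 2 in neutrophils. Leaving out a replicate was not possible with 1 library per group. No paired analysis was possible because each group is 1 library. Depth per cell limits all detected fractions.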
